A study of Mus musculus with 12 samples.

Results

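The genes described here are 8 interferon response genes: Samd9l, Ifit1, Ifit3, Isg15, Irf7, Oasl2, Rsad2 and Bst2. They were matched by symbol to the Ensembl identifiers of a table of 53715 mouse genes, and all 8 were found. Samd9l was chosen by its counts in the Tet1KO against WT comparison at 11 months in these same libraries, and the other 7 are canonical interferon-induced genes named beside it. The values of Samd9l at 11 months are therefore a description and carry no test.

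RNA was sequenced from sorted mouse testis spermatogonia, the mitotic germ cells that feed sperm production, of a mixed C57BL6/129 strain. The 4 groups were WT at 3 months, Tet1KO at 3 months, WT at 11 months and Tet1KO at 11 months, with 3 libraries in each. All libraries came from 1000 cells sorted by flow cytometry and amplified with Smart-seq2, which makes cDNA over whole transcripts of few cells. TET1 oxidises 5-methylcytosine in DNA, and Tet1KO names the groups labelled as lacking it. The labels give neither the allele nor whether the deletion is germline or conditional, and do not tie the libraries to single animals. The p-values below therefore measure the spread between these libraries, which may be technical.

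Type I interferons bind the receptor of Ifnar1 and Ifnar2, the kinases Jak1 and Tyk2 become active there, and a transcription factor complex that contains Irf9 then binds the interferon-stimulated response element in the promoters of induced genes. Ifit1, Ifit3, Oasl2, Rsad2, Isg15 and Bst2 are textbook targets, and Irf7 is a transcription factor that is itself induced and amplifies interferon production. Samd9l is an interferon-inducible gene that restrains viruses and the growth of blood-forming cells.

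The promoter sequences show which of the 8 genes hold the letters of that element's core close to the start site. RefSeq windows of 250 bases before to 50 bases after the start were found for all 8 genes (GRCm38.p6, the assembly of mm10). They were searched on both strands for the core of the element, 2 copies of GAAA with any 2 bases between them. The match was in 5 of 8 (Ifit1, Ifit3, Isg15, Rsad2 and Bst2), or 62.5%. It was in 1079 of all 27025 genes with a window (3.99%), and in 39 of 103 (37.9%) of a list of other interferon pathway genes. A gene was counted when any of its windows held a match. The last 160 bases before the start are printed 5′ to 3′ on the gene's strand for these 5 genes, with the matches in capitals, and for Samd9l, on which the expression results turn. They lie at chr19:34640729-34640888 (plus strand) for Ifit1, chr19:34583369-34583528 (plus) for Ifit3 and chr4:156200819-156200978 (minus) for Isg15. For Rsad2, Bst2 and Samd9l they lie at chr12:26456453-26456612, chr8:71537473-71537632 and chr6:3399572-3399731, all on the minus strand.
Ifit1: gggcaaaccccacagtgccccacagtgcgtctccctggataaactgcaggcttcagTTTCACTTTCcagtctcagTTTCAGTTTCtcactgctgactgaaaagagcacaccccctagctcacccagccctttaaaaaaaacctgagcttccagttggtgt
Ifit3: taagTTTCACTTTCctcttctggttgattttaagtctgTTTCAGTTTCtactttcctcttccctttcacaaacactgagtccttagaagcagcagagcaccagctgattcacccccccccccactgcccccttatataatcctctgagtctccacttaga
Isg15: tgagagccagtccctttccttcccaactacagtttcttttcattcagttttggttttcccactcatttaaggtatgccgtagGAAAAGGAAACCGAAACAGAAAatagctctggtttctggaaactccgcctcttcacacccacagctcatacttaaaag
Rsad2: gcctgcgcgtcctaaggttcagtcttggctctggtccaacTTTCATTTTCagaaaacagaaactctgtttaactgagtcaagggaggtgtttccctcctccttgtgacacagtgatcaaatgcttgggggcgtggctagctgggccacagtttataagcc
Bst2: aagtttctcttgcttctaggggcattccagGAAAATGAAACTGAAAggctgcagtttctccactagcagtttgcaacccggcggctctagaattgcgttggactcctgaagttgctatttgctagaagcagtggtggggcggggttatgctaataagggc
Samd9l: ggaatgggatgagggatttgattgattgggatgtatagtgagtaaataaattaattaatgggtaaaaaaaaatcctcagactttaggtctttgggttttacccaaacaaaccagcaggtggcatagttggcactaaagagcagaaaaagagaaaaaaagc
Ifit1 and Ifit3, neighbours on chromosome 19, each held 2 separate matches on the opposite strand, at 104 to 95 and 85 to 76 bases before the start in Ifit1 and at 156 to 147 and 122 to 113 bases in Ifit3. Both read TTTCACTTTC and TTTCAGTTTC on the gene's strand. Isg15 held 3 matches on its own strand between 78 and 57 bases before the start, each sharing 4 bases with the next. Bst2 held 2 that overlap in the same way between 130 and 115 bases, and Rsad2 held 1 at 120 to 111 bases. Samd9l, Irf7 and Oasl2 had no exact match in the window. When 1 mismatch was allowed, 7 of the 8 genes matched, as did 38.9% of all genes with a window. TTC and GAA with any 3 bases between them is a shape found in interferon gamma-responsive promoters. It was in 1 of 8 genes (Bst2), against 9.55% of all genes with a window. The Bst2 match lay 136 to 128 bases before the start, and 3 of its bases lie in the longer motif's match. A match describes letters only.

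**Figure D1:**
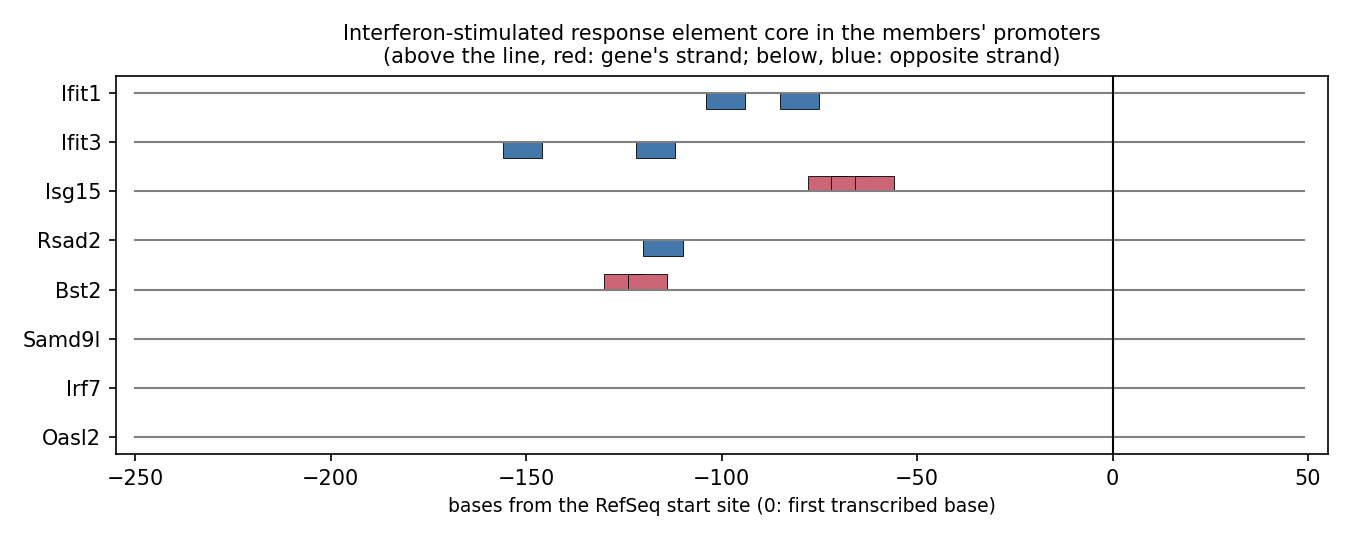
Positions of exact matches to the response element core in the RefSeq promoter windows of the 8 genes; the x axis gives bases from the start site, with matches on the gene's strand above each line and on the opposite strand below it. All matches lie between 156 and 57 bases before the start, in Ifit1, Ifit3, Isg15, Rsad2 and Bst2.

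Levels below are CPM, each count divided by its library's total after scaling with the TMM factors of edgeR. Total counts ran from 8325159 to 18223645 per library. A count of 0 allows up to 3 counts, 0.162 to 0.402 CPM over the 12 libraries, and this limit covers counting error only because the reads carry no molecular identifiers. WT replicate 1 and Tet1KO replicate 2 at 3 months stood apart from the other 10 libraries on the first principal component (39.0% of the variance, scores -130.7 and -121.2). Tet1 counts were 0 to 16 in WT and 1 to 18 in Tet1KO libraries, so counts over the whole gene did not separate the labels. The germ cell markers Ddx4 and Dazl were present at a summed 1947 to 2812 CPM in every library. All 8 markers of spermatids, a later germ cell stage, had counts in every library too, at a summed 287.7 to 2808 CPM. Their highest sum was in WT replicate 1 of 3 months, one of the 2 libraries that stood apart. All 18 macrophage markers also had counts in every library, at a summed 385.7 to 866.7 CPM at 3 months and 100.9 to 1244 CPM at 11 months. The 2 most abundant of them, the MHC class II genes Cd74 and H2-Aa, ranged from 29.7 to 458.9 and from 12.7 to 329.5 CPM. In such bulk libraries, fewer cells of a type and less RNA per cell cannot be told apart.

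Per kilobase of exon, which allows genes to be compared, Bst2 was the most abundant of the 8 at a mean of 10.5 CPM per kb over the 12 libraries. Oasl2 (1.08), Rsad2 (0.805) and Irf7 (0.571 CPM per kb) followed. Samd9l (0.174), Isg15 (0.147), Ifit3 (0.135) and Ifit1 (0.0952 CPM per kb) were the lowest. The ranges over libraries of every pair of neighbours in this order overlapped, Bst2 and Oasl2 only through the 2 libraries in which Bst2 was nearly absent: in the other 10, Bst2 was at least 6.30 CPM per kb and Oasl2 at most 1.77. Samd9l, Irf7, Oasl2, Rsad2 and Bst2 passed the low-count filter of edgeR, and Ifit1, Ifit3 and Isg15 did not.

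**Figure D2:**
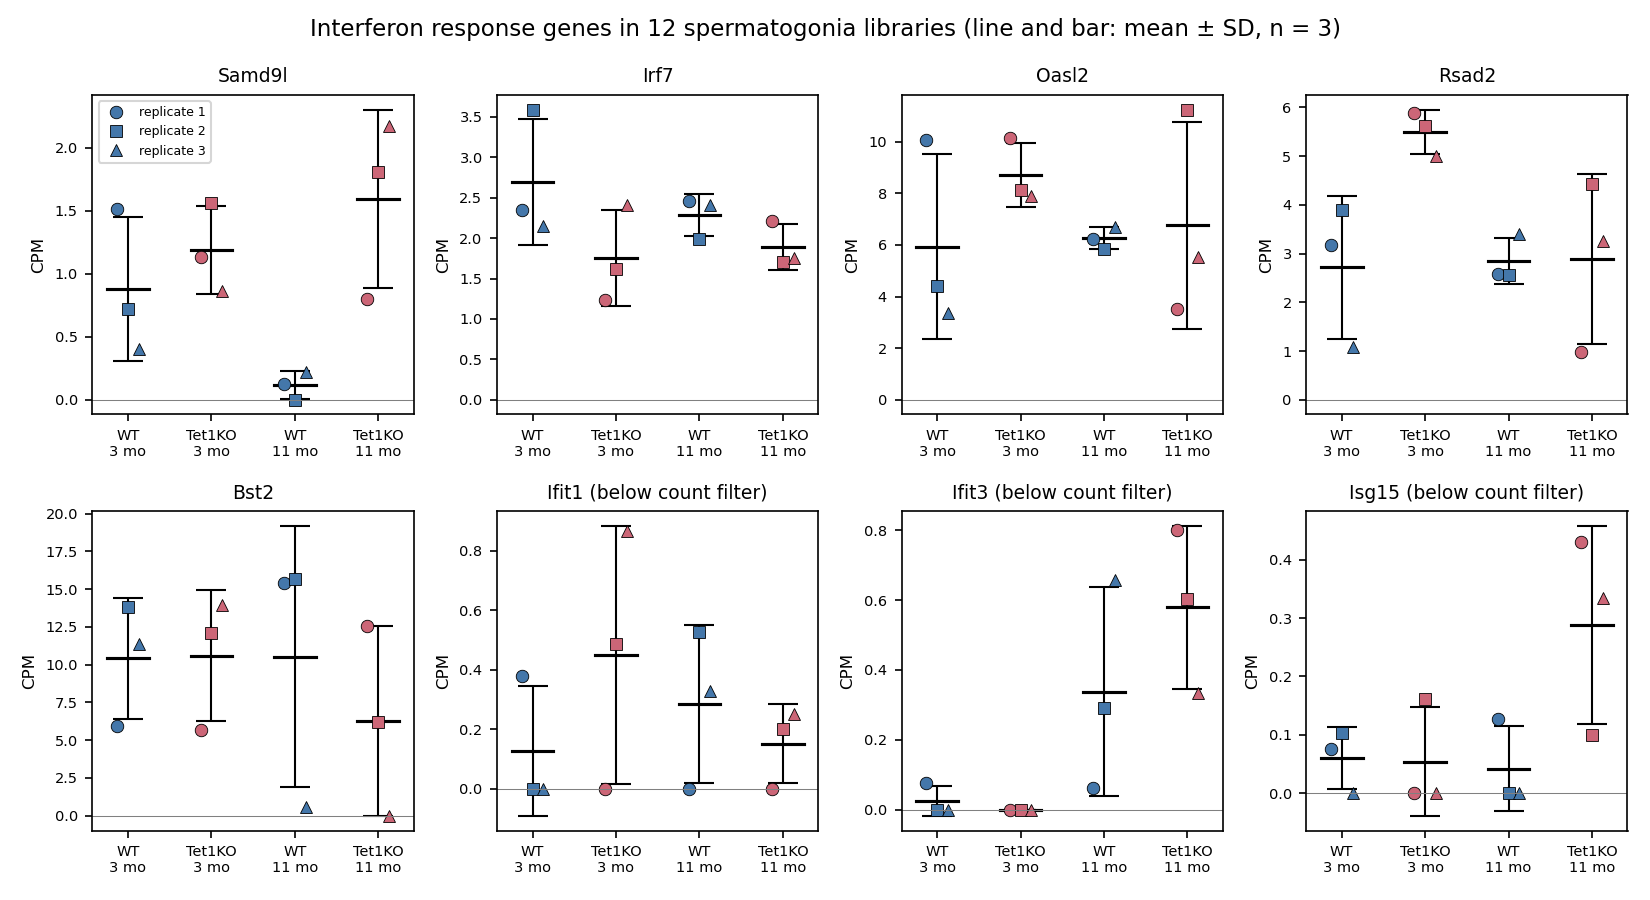
CPM of each of the 8 genes in each of the 12 libraries (y axis, a separate scale per gene), by genotype and age, with the symbol giving the replicate number; lines and bars are the mean and SD of 3 libraries. Samd9l is lowest in the 3 WT libraries of 11 months, Rsad2 is highest in the 3 Tet1KO libraries of 3 months, and Bst2 is near 0 in replicate 3 of both genotypes at 11 months.

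Samd9l (ENSMUSG00000047735, chromosome 6, 3372257 to 3399572, minus strand, mm10) was nearly undetected in WT spermatogonia at 11 months and present in the other 3 groups. At 3 months the WT libraries held 20, 7 and 3 counts and the Tet1KO libraries 11, 29 and 9 (replicates 1, 2 and 3 here and below). At 11 months the WT libraries held 2, 0 and 2 counts and the Tet1KO libraries 13, 18 and 26. Each WT library of 11 months thus held fewer than 3 counts, and every other library held 3 or more. WT replicate 3 of 3 months, with 3 counts, was itself at the limit that a count of 0 allows.
In CPM, the 3-month values of Samd9l were 1.51, 0.718 and 0.402 for WT and 1.14, 1.56 and 0.865 for Tet1KO. The 11-month values were 0.126, 0 and 0.219 for WT and 0.801, 1.81 and 2.17 for Tet1KO. The means of WT and Tet1KO were 0.878 ± 0.572 and 1.19 ± 0.352 CPM (SD, n = 3) at 3 months, and 0.115 ± 0.110 and 1.59 ± 0.711 CPM at 11 months. At 11 months the genotypes did not overlap, the means differed 13.85-fold, and the fitted log2 fold change was 3.81 ± 0.96 (SE); the genotypes did not overlap, with Tet1KO higher, for 2.82% of all tested genes, and nothing is read from this, since the comparison chose the gene. The WT side of this difference rests on 4 counts over 3 libraries.
Against WT at 3 months, the WT libraries of 11 months were lower by a fitted log2 fold change of -2.99 ± 0.95 (SE), again without overlap, as were 6.12% of all tested genes; these are the same 11-month libraries, and the value is no separate support. Between Tet1KO ages the fitted log2 fold change was 0.41 ± 0.79 (SE), with overlapping groups. With each library left out in turn, the 11-month genotype log2 fold change ran from 3.17 to 4.47 and the WT age log2 fold change from -3.62 to -2.34; since the choice of the gene fixes these directions, the ranges are no sign of stability. At 11 months the macrophage markers summed to 1244, 100.9 and 1111 CPM for WT and to 616.9, 1230 and 1163 CPM for Tet1KO, and their part in the Samd9l values was not tested. The 7 peritubular myoid markers did separate the genotypes at 11 months, with sums of 72.6 to 257.3 CPM in WT and 27.99 to 64.9 CPM in Tet1KO and 6 or 7 of them with counts in each Tet1KO library; their part in the Samd9l values was not tested.

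At 3 months, whose libraries did not choose Samd9l, the edgeR quasi-likelihood test gave a log2 fold change of 0.41 ± 0.81 (SE) for Tet1KO against WT (adjusted p = 1). The groups overlapped. The value ran from 0.12 (without WT replicate 3) to 1.07 (without WT replicate 1) when 1 library was left out, and was 0.16 without Tet1KO replicate 2. It was 0.81 without the 2 libraries that stood apart and 0.34 without the 2 libraries whose labels carry a code of another prefix (WT replicate 2 and Tet1KO replicate 1), none past the threshold. The difference was smaller than its standard error.

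**Figure D3:**
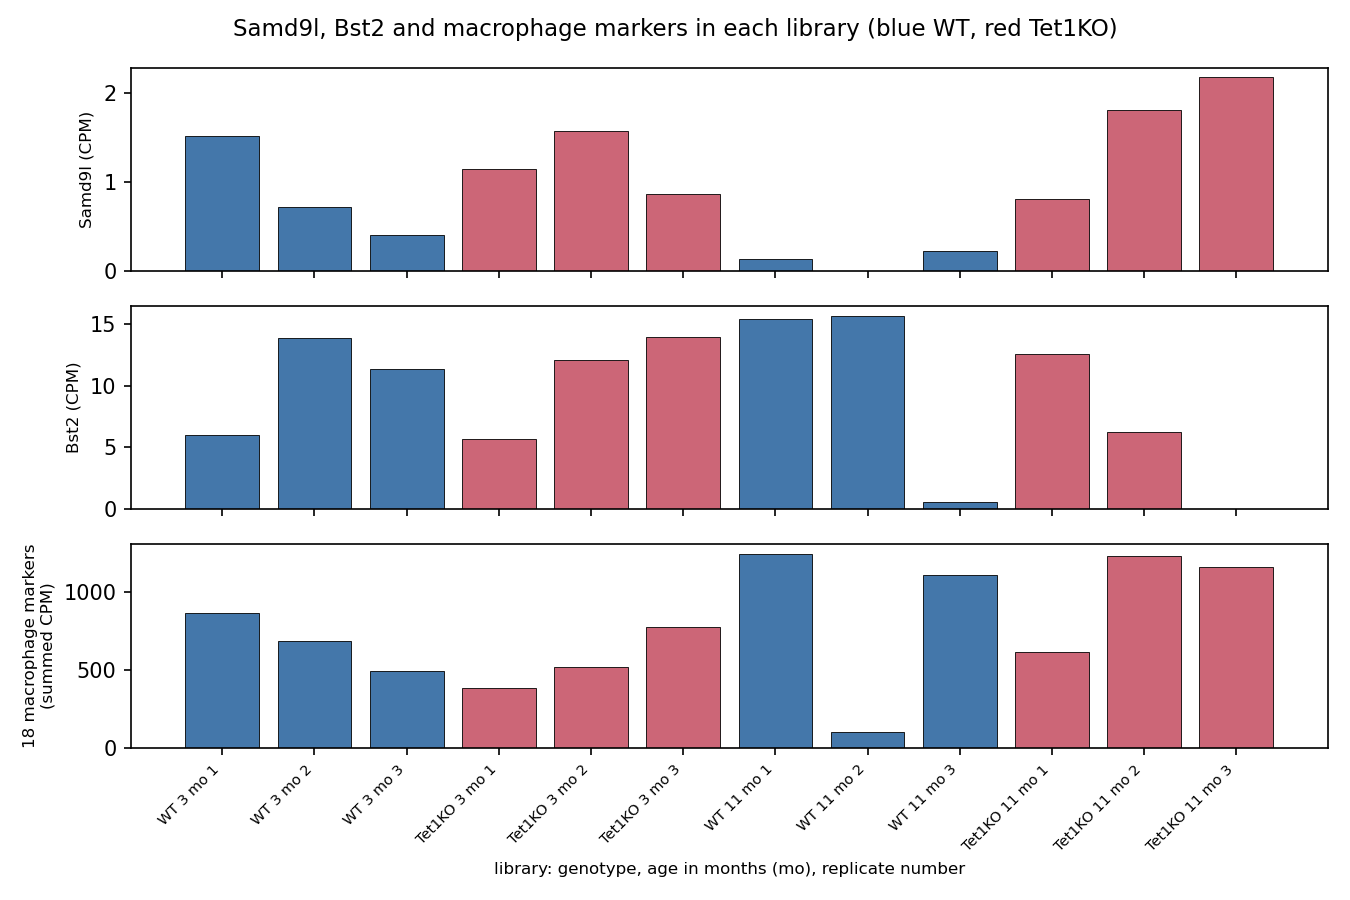
Samd9l (top), Bst2 (middle) and the summed level of 18 macrophage markers (bottom), all in CPM, in each library (x axis); bars start at 0, blue for WT and red for Tet1KO. Samd9l is at most 0.219 CPM in the 3 WT libraries of 11 months, Bst2 is at 0.548 and 0 CPM in replicate 3 of both genotypes at 11 months, and the marker sum is lowest, 100.9 CPM, in WT replicate 2 at 11 months.

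Irf7 (ENSMUSG00000025498, chromosome 7, 141262706 to 141266481, minus strand), the inducible regulator of the response, had counts in all 12 libraries, from 12 to 39. At 3 months its level was 2.34, 3.59 and 2.15 CPM in the WT libraries and 1.24, 1.62 and 2.404 CPM in the Tet1KO libraries. At 11 months it was 2.46, 1.98 and 2.41 CPM in the WT libraries and 2.22, 1.71 and 1.75 CPM in the Tet1KO libraries. Irf7 thus varied less than 3-fold over the libraries, and the genotypes overlapped at both ages.
The log2 fold change of Irf7 for Tet1KO against WT was -0.62 ± 0.41 (SE) at 3 months (adjusted p = 1, edgeR), and -0.27 ± 0.41 at 11 months, given without a test. The 3-month value was -0.13 without the 2 libraries of the other code prefix. Its mean was lower in Tet1KO at both ages, where Samd9l had the higher mean. A stretch of 45 of the 3776 exon bases of Irf7 (1.19%) overlaps Phrf1 on the opposite strand, and the counts are not stranded. The other 7 genes share no exon bases with another gene.

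The antiviral effectors Oasl2 and Rsad2 had counts in every library. Oasl2 (ENSMUSG00000029561, chromosome 5, 114896936 to 114912234, plus strand), a member of the oligoadenylate synthetase-like family, was at 10.05, 4.41 and 3.35 CPM in the 3-month WT libraries and 10.13, 8.14 and 7.88 CPM in the 3-month Tet1KO libraries. At 11 months its level was 6.245, 5.83 and 6.69 CPM in the WT libraries and 3.51, 11.25 and 5.51 CPM in the Tet1KO libraries. The genotypes overlapped at both ages, and the 3 WT libraries of 11 months were the most alike.
The log2 fold change of Oasl2 at 3 months was 0.54 ± 0.46 (SE; adjusted p = 1, edgeR). It was 1.16 without WT replicate 1, 1.21 without the 2 libraries that stood apart and 0.28 without the 2 libraries of the other code prefix, and passed the threshold in none of these. At 11 months the log2 fold change was 0.11 ± 0.46, a description.
Rsad2 (ENSMUSG00000020641, chromosome 12, 26442746 to 26456452, minus strand) encodes viperin, a radical SAM enzyme that makes a chain-terminating nucleotide. At 3 months its level was 3.175, 3.899 and 1.07 CPM in the WT libraries and 5.89, 5.61 and 5 CPM in the Tet1KO libraries. At 11 months it was 2.59, 2.57 and 3.399 CPM in the WT libraries and 0.985, 4.42 and 3.26 CPM in the Tet1KO libraries. The 3 Tet1KO libraries of 3 months were the highest of all 12.

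At 3 months the means of Rsad2 were 2.72 ± 1.47 CPM for WT and 5.499 ± 0.455 CPM (SD, n = 3) for Tet1KO. Its log2 fold change, 1.005 ± 0.55 (SE), was not past the threshold of edgeR (adjusted p = 1). Of the 8 genes it was the only one whose genotypes did not overlap at 3 months, against 3.32% of all tested genes with Tet1KO higher and 3.62% with Tet1KO lower. The 10 Sertoli cell markers, of which 9 or 10 had counts in each library, also did not overlap, at a summed 85.5 to 272.9 CPM in WT and 20.9 to 77.2 CPM in Tet1KO, and their part in the Rsad2 values was not tested. The log2 fold change of Rsad2 was 0.66 without WT replicate 3, 1.11 without the 2 libraries that stood apart and 1.33 without the 2 of the other code prefix. Between ages in Tet1KO, the log2 fold change of Rsad2 was -0.94 ± 0.55 (SE), without overlap, as for 3.09% of all tested genes in that direction; it shares the 3-month Tet1KO libraries with the genotype comparison, and was -0.52 without Tet1KO replicate 1 of 11 months. The 11-month means of Rsad2 were 2.85 ± 0.475 CPM for WT and 2.89 ± 1.75 CPM for Tet1KO, a log2 fold change of 0.01 ± 0.55.

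Bst2 (ENSMUSG00000046718, chromosome 8, 71534255 to 71537456, minus strand) encodes tetherin, a membrane protein that holds budding virus particles on the cell. The WT libraries held 79, 135 and 85 counts at 3 months and 244, 269 and 5 at 11 months. The Tet1KO libraries held 55, 225 and 145 counts at 3 months and 204, 62 and 0 at 11 months. Replicate 3 of both genotypes at 11 months was thus at or near 0, while the other 10 libraries held 55 to 269 counts.
In CPM, the WT libraries were at 5.97, 13.85 and 11.4 at 3 months and 15.4, 15.7 and 0.548 at 11 months. The Tet1KO libraries were at 5.68, 12.1 and 13.9 CPM at 3 months and 12.6, 6.23 and 0 CPM at 11 months. The totals of the 2 low libraries, 9572429 and 13156946 counts, were within the range of the others. The macrophage markers were high in both, at 1111 and 1163 CPM. The 8 spermatid markers were lower in these 2 than in any other library, at 287.7 and 396.3 CPM. So were the 6 T and NK cell markers, at 0.987 and 1.75 CPM. The part of these differences in the Bst2 values was not tested.
The log2 fold change of Bst2 was 0.03 ± 1.23 (SE) at 3 months (adjusted p = 1, edgeR) and -0.75 ± 1.24 at 11 months. The 11-month value was -1.78 without Tet1KO replicate 1, -0.18 without Tet1KO replicate 3 and -1.17 with the replicate number as a block. Its standard error was the largest of the 5 tested genes. Between ages the log2 fold changes were 0.03 ± 1.23 in WT and -0.75 ± 1.24 in Tet1KO, and all groups overlapped.

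Ifit1, Ifit3 and Isg15 had 0 to 13 counts per library and were described by their counts. Ifit1 (ENSMUSG00000034459, chromosome 19, 34640871 to 34650009, plus strand), which binds viral RNA whose cap lacks ribose methylation, had counts of 5, 0 and 0 in the 3-month WT libraries and 0, 9 and 9 in the 3-month Tet1KO libraries. At 11 months the WT libraries held 0, 9 and 3 counts and the Tet1KO libraries 0, 2 and 3. Its 40 counts came from 7 of 12 libraries, with no order by genotype or age.
Ifit3 (ENSMUSG00000074896, chromosome 19, 34583531 to 34588731, plus strand), of the same family of RNA-binding repeat proteins, had counts of 1, 0 and 0 in the 3-month WT libraries and 0 in each 3-month Tet1KO library. The WT libraries of 11 months held 1, 5 and 6 counts and the Tet1KO libraries 13, 6 and 4. It had a count in 1 of 6 libraries at 3 months and in 6 of 6 at 11 months, with sums of 1 and 35. The highest 3-month library, 0.0756 CPM, was above the lowest 11-month library, 0.0631 CPM, and most values lay near the limit that a count of 0 allows.
Of the 50-base stretches of Ifit3 transcripts, 51.2% are also in Ifit3b. Reads of these stretches may have been dropped by the mapping quality minimum of 30, which would lower both counts, or split between the genes. Which of these occurred was not tested. Ifit3b itself had a sum of 1 count at 3 months, and at 11 months 1, 6 and 0 counts in the WT libraries and 0 in each Tet1KO library. The other shared portions were 7.13% for Ifit1 (nearly all with Ifit1bl2), 3.96% for Isg15 and under 1% for the rest.
Isg15 (ENSMUSG00000035692, chromosome 4, 156199424 to 156200818, minus strand), a ubiquitin-like modifier, had counts of 1, 1 and 0 in the 3-month WT libraries and 0, 3 and 0 in the 3-month Tet1KO libraries. The 11-month counts were 2, 0 and 0 for WT and 7, 1 and 4 for Tet1KO. The Tet1KO libraries of 11 months held 12 of its 19 counts, at 0.289 ± 0.170 CPM (SD, n = 3), and the 11-month genotypes overlapped. Of the 8 genes, Samd9l and Isg15 thus had their highest group mean in Tet1KO at 11 months, as did Ifit3 at 0.579 ± 0.234 CPM, while Oasl2, Rsad2, Bst2 and Ifit1 had theirs in Tet1KO at 3 months and Irf7 in WT at 3 months. The choice of Samd9l bears on its place here, and Isg15 and Ifit3 were below the filter, so nothing is read from this grouping.

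**Figure D4:**
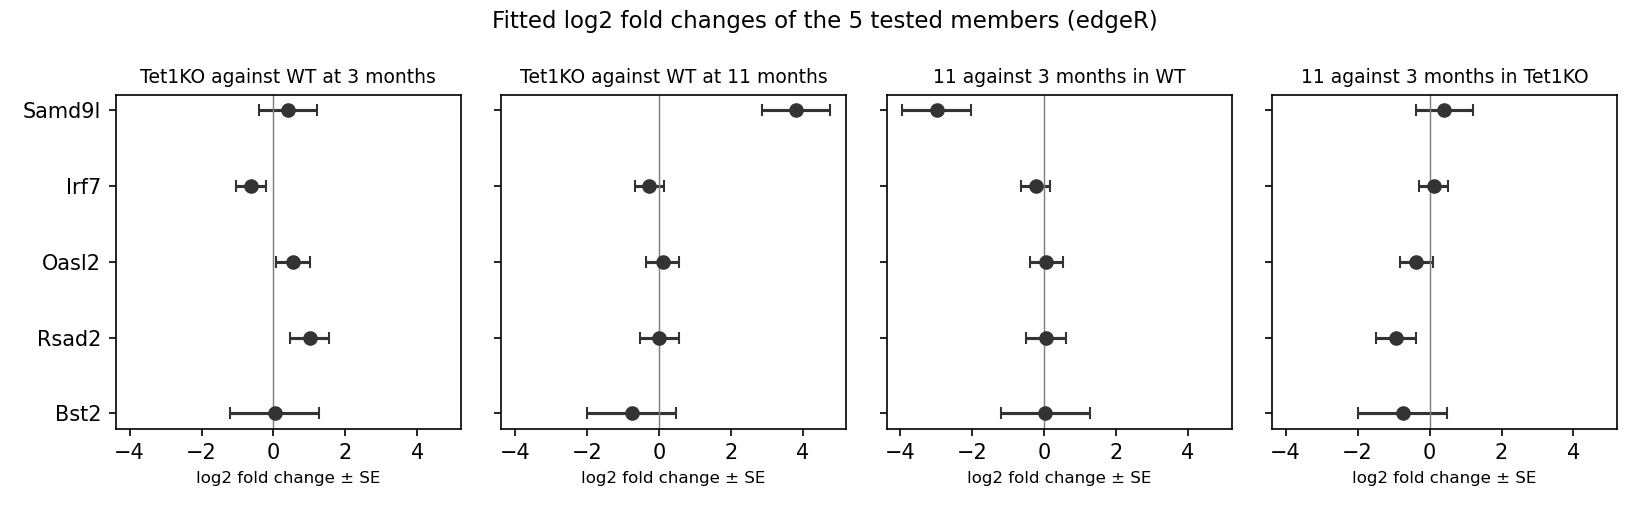
Fitted log2 fold changes (x axis) of the 5 tested genes in the 4 comparisons, with bars of 1 SE. Samd9l is at 3.81 for genotype at 11 months, the comparison that chose it, and -2.99 for age in WT, which shares its WT libraries. The other 4 genes, not chosen that way, lie between -0.94 and 1.005.

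Over all tested genes, edgeR called none for Tet1KO against WT at 3 months at an adjusted p under 0.05 (0% of 19815), with 225 genes (1.14%) at an unadjusted p under 0.05; none of the 5 tested genes was among either. DESeq2 called 1 gene and limma-voom 0. For 11 months, 326 genes (1.65%) had an unadjusted p under 0.05, and edgeR, DESeq2 and limma-voom called 0, 3 and 0. For age, 1124 (5.67%) in WT and 462 (2.33%) in Tet1KO had an unadjusted p under 0.05, with 0 and 0 calls by edgeR, 0 and 5 by DESeq2 and 0 and 0 by limma-voom. None of these calls was one of the 8 genes. For Samd9l in the comparisons with 11-month libraries nothing is read from this, since its choice rests on them. Ifit1, Ifit3 and Isg15, below the filter, had no test here by edgeR or limma-voom.

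The interferon genes on the pathway list had few or no counts. Of 11 ligand genes on a list of other interferon pathway genes, 8 had no count in any library, and Ifnk and Ifng had sums of 2 and 1. Ifnb1, the beta interferon, had counts of 0, 6 and 4 in the 3-month WT libraries and 0, 45 and 0 in the 3-month Tet1KO libraries. The 11-month counts were 3, 0 and 0 for WT and 7, 0 and 12 for Tet1KO. Its one high library, Tet1KO replicate 2 of 3 months, was one of the 2 that stood apart and had the greatest depth of the 12. It held 225 counts of Bst2, 151 of Oasl2, 104 of Rsad2 and 29 of Samd9l. Those of Oasl2, Rsad2 and Samd9l were the most in any library. In CPM it was not the highest library for any of these genes.

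The receptor and its kinases were well expressed in every group. Jak1 was at 168.9 ± 8.35 and 169.8 ± 30.5 CPM in the WT and Tet1KO groups of 3 months, and 157.9 ± 11.4 and 175.3 ± 39.1 CPM in those of 11 months. The receptor chain Ifnar1 was at 95.6 ± 9.71, 91.1 ± 32.01, 100.2 ± 28.4 and 78.5 ± 11.9 CPM in this order. Jak2, the kinase of the interferon gamma receptor, lay between 58.5 and 61.9 CPM in all 4 group means.
Among the transcription factors, Irf5 group means lay between 40.9 and 44.7 CPM. Irf9, the DNA-binding part of the complex, stood at 22.5 ± 3.54 and 24.0 ± 4.79 CPM at 3 months and 24.1 ± 3.28 and 29.5 ± 1.89 CPM at 11 months. The 3 Tet1KO libraries of 11 months were above the 3 WT ones, with an edgeR log2 fold change of 0.29 ± 0.19 (SE; adjusted p = 1), not past the threshold. Part of the exon bases of Irf5 (14.1%, Tnpo3) and Irf9 (2.28%, Rnf31) overlap other genes.

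Of the 88 tested genes of the list, 46 (52.3%) had a higher and 42 a lower fitted value in Tet1KO at 3 months, against 46.8% higher of all tested genes, with a median log2 fold change of 0.03 against -0.02 for all tested genes. None was called by edgeR, and 2 had an unadjusted p under 0.05. These were Socs3, the feedback inhibitor of JAK kinases, at 6.67 ± 0.745 against 4.01 ± 0.942 CPM (edgeR log2 fold change 0.73 ± 0.30, adjusted p = 1) and Irgm2, an interferon gamma-induced GTPase, at 2.04 ± 0.659 against 0.835 ± 0.325 CPM (1.303 ± 0.56, adjusted p = 1). In addition to these 2, Adar, the RNA adenosine deaminase, was above WT in every Tet1KO library, and Psmb10, an immunoproteasome subunit, was below it. These 3 higher and 1 lower of 88 stand beside 3.32% and 3.62% of all tested genes.
At 11 months, 63 were higher and 25 lower in Tet1KO, or 71.6% higher against 53.8% of all tested genes, with a median log2 fold change of 0.20 against 0.02. Marker sums also differed between these libraries. Macrophage markers were at 100.9 CPM in WT replicate 2 and 616.9 to 1244 CPM in the other 5, and peritubular myoid markers did not overlap. The neutrophil list was at 23.4 and 28.0 CPM in 2 Tet1KO libraries against at most 4.06 CPM in WT. Most of those 2 sums came from S100a8 (15.67 and 18.46 CPM) and S100a9 (5.625 and 6.18 CPM). The part of these markers in the shift of the listed genes was not tested. None was called by edgeR and none had an unadjusted p under 0.05. The 5 whose genotypes did not overlap, all higher in Tet1KO, were Irf9, Sp100, Lgals9, Gbp7 and Irgm2; 2.82% of all tested genes did so in that direction.
By role at 11 months, the higher ones were 23 of 29 other type I induced genes, 7 of 8 transcription factors and 11 of 16 interferon gamma-induced genes. Among antiviral effectors 7 of 12 were higher, and among receptors and kinases 6 of 9. The same held for 5 of 10 sensors and adaptors and 4 of 4 genes listed under feedback. At 3 months the counts in this order were 16, 5, 8, 5, 7, 3 and 2. The feedback group includes Isg20, which is not a feedback inhibitor. Other genes among the 3 most abundant tested ones of each role are given next. Parp12, an ADP-ribosyltransferase, had 11-month means of 91.8 ± 9.04 CPM for WT and 89.3 ± 2.82 CPM for Tet1KO. Zc3hav1, the zinc-finger antiviral protein, had 11-month means of 67.6 ± 18.4 and 75.7 ± 34.8 CPM, and B2m, the MHC class I light chain, of 123.7 ± 59.02 and 144.8 ± 23.1 CPM.
The others of these most abundant genes are given by the lowest and highest of their 4 group means. Among effectors and induced genes, Samhd1, which degrades nucleotides, lay between 38 and 48.9 CPM, Ifitm2, which blocks virus entry, between 15.6 and 29.4, Znfx1 between 33.04 and 39.4, and Daxx between 20.9 and 26.1 CPM. Among sensors and adaptors, Adar lay between 16.5 and 22.1 CPM, Mavs between 12 and 15.1 and Cgas between 7.01 and 9.99 CPM. Among genes listed under feedback, Socs3 lay between 4.01 and 7.86 CPM and Socs1 between 1.78 and 3.69 CPM. Isg20, listed there but an induced antiviral exonuclease, lay between 1.33 and 5.88 CPM. The class I heavy chain gene H2-K1 lay between 124.6 and 166 CPM, and Psmb10 between 53.4 and 70.7 CPM.
Between ages, 38 of 88 (43.2%) were higher at 11 months in WT, where 43.6% of all tested genes were, and 49 of 88 (55.7%) in Tet1KO, where 48.0% were, with medians of -0.10 and 0.08 against -0.06 and -0.01 for all tested genes, and 0 calls by edgeR in each. These comparisons share their 11-month libraries with the genotype comparison. Those at an unadjusted p under 0.05 were Adar (0.43 ± 0.18, adjusted p = 0.774) and Ifitm2 (-0.92 ± 0.39, adjusted p = 0.774) in WT, and Irgm1 (1.08 ± 0.43, adjusted p = 0.9999) in Tet1KO, as edgeR log2 fold changes ± SE. Ifitm2 shares 40.9% of its exon bases with Gm45717 on the same strand, and Adar 16.8% with Chrnb2 on the opposite one.

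**Figure D5:**
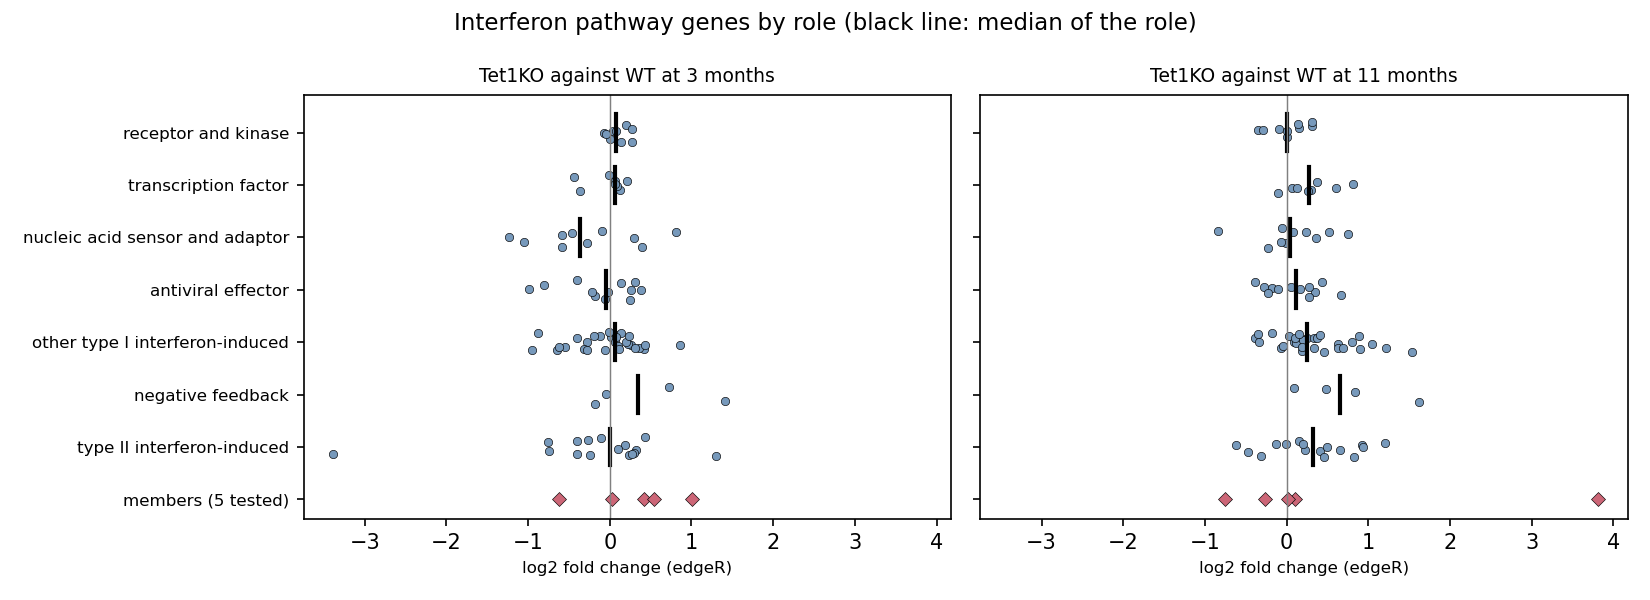
Fitted log2 fold changes (x axis) for Tet1KO against WT at 3 months (left) and 11 months (right) of the 88 tested genes of the interferon pathway list by role (blue points; black lines are medians), and of the 5 tested genes described here (red diamonds). The diamond at 3.81 on the right is Samd9l, which this comparison chose, so its distance from the other points is no result.

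Over the 12 libraries, the levels (log2 CPM) of the 5 tested genes were not alike as a set. The highest correlation was between Oasl2 and Rsad2, with a Pearson r of 0.80 and a Spearman rho of 0.71. Samd9l had r of 0.37 with Oasl2, 0.36 with Rsad2, -0.34 with Irf7 and -0.31 with Bst2. The points share library depth and group, and these values are descriptions. Of all tested genes, those whose levels were most like Samd9l were Ttc8, a BBSome subunit of the cilium (r = 0.92), Syne1, a nuclear envelope spectrin-repeat protein (0.88), Sos2, a Ras exchange factor (0.87), Gm42531 (0.85) and Tspoap1 (0.85). Those most like the mean of the 5 tested genes were Odc1, the polyamine enzyme ornithine decarboxylase (0.89), Spata25 (0.88), Ahdc1 (0.88), Mppe1 (0.88) and Sectm1a (0.88). These r values were picked as the highest over all tested genes, and Gm42531, Mppe1 and Sectm1a had means of only 0.816, 0.669 and 0.663 CPM. None of these 10 was on the interferon pathway list. Since that list holds 88 of the 19815 tested genes, nothing is read from this.

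Other blood cell markers were low. The 5 plasmacytoid dendritic cell markers, of a cell type that makes interferon, summed to 9.71 to 21.7 CPM over the 12 libraries, with Siglech at 0 in 4 of them. The 6 T and NK cell markers summed to 0.987 to 15.9 CPM. The neutrophil list reached 28.6, 23.4 and 28.0 CPM in Tet1KO replicate 3 of 3 months and replicates 2 and 3 of 11 months. It was at most 4.08 CPM in the other 9, with Ly6g and Retnlg at 0 in all. S100a8 (18.46, 15.67 and 18.46 CPM) and S100a9 (8.365, 5.625 and 6.18 CPM) made up most of these 3 sums. Both had no count in the other 9 libraries. Samd9l was at 0.865, 1.81 and 2.17 CPM in those 3 libraries and at 0.801 CPM in Tet1KO replicate 1 of 11 months, where the neutrophil list was at 1.91 CPM. Whether neutrophils were present, and the part of any blood cells in the values, was not tested.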

How the data were processed

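RNA-seq of 12 libraries of sorted mouse spermatogonia was analysed. The authors deposited raw counts per gene, made per the file headers with featureCounts 1.6.2 on GENCODE vM17, without strand, with a mapping quality minimum of 30 and with reads of overlapping genes and multi-mapped reads counted. Reads of overlapping genes therefore cannot be told apart. Reads that fit near-identical genes equally well may instead have been dropped by the mapping quality minimum, which was not tested. The deposited table also gives each gene's exon length in bases, another deposited value. Per the submitters' processing notes, HISAT2, SAMtools and mm10 were used; no versions of them are given in the sources used here. Symbols, from GENCODE vM21, matched 53620 of 53715 genes.

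The 8 genes and the pathway and marker lists were chosen with earlier results of these data known. From the pathway list, the 3 tested genes of each role with the highest mean CPM are named, except 1 that is not reported here; other genes at an unadjusted p under 0.05 or without overlap were named after their values were seen. Of 129 pathway genes 128 were matched and 88 tested. Genes were filtered with filterByExpr (19815 left), scaled with TMM and fitted in edgeR 4.0.16 (R 4.3.3) with 4 group means over all 12 libraries, and tested two-sided by robust quasi-likelihood F tests, with p-values adjusted by Benjamini-Hochberg and a threshold of 0.05. SEs were derived from the F statistic. The procedure was tested on simulated data for the genotype comparison at 3 months only. Changes were set only in genes above a minimum level, so the lowest genes and the other comparisons were not covered. Log2 CPM used a prior count of 2. Within groups, the chi-square between 2 libraries was at least 10.87 times its degrees of freedom, so each counted as 1 replicate. At 11 months, deviations from the group means of libraries with the same replicate number correlated at 0.37, 0.17 and 0.33, so the numbers may pair them; at 3 months the values were -0.59, -0.18 and 0.30. Alternatives were DESeq2 1.42.0, its size factors, limma-voom 3.58.1, other filters, only the compared groups, replicate blocks and libraries left out. Promoter sequences are from RefSeq.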

Additional observations from a re-analysis of the deposited data

How the results depend on the processing

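Of 411 fold changes of the 5 tested genes under an alternative, 406 moved by less than the spread between replicates or kept their direction and side of the threshold, and 5 changed direction. All 5 were Bst2 for Tet1KO against WT at 3 months, with a log2 fold change of 0.03 with all libraries, -0.14 by limma-voom and -0.36 without the 2 libraries that stood apart, and a range of -0.25 to 0.33 when each library was left out in turn; the cause was not tested. Fold changes of Irf7, Oasl2, Rsad2 and Bst2 in the other comparisons were described without a test, and some near 0 took the other sign within that spread. The spread is wide: Bst2 between ages in Tet1KO went from -0.75 to as low as -2.15 within it. The 406 include the 11-month genotype and WT age values of Samd9l, whose directions the choice of the gene fixes. Some alternatives left out a library of neither compared group. The 406 are therefore no sign of stability. At 3 months, whose libraries did not choose Samd9l, none of the 5 tested genes was called by any tool or alternative.

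Of 168 counts of called genes, 165 stayed at 0. DESeq2 called 1 gene at 3 months (S100a8), 3 at 11 months (S100a8, S100a9 and Tpm2) and 5 between ages in Tet1KO, none of them on the interferon pathway list. With the replicate block, 0 genes were called in each of the 4 comparisons, and the block changed no call. The block for comparisons of ages was chosen after seeing the data. Of the 8 promoters, 5 held the response element core, 7 with 1 mismatch, and 1 held the other motif (TTC and GAA, 3 bases apart). The stricter filter (50 counts in 3 libraries) left Samd9l and Irf7 out and gave them no value. Depth limits Ifit1, Ifit3, Isg15 and the WT level of Samd9l at 11 months, which lie at or near the limit that a count of 0 allows.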

Other observations

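Bst2 was the only gene of the table with at least 50 counts in 10 libraries and at most 5 in exactly the other 2, over all pairs of libraries. These were replicate 3 of WT (5 counts) and replicate 3 of Tet1KO (0 counts) at 11 months. The thresholds were set around these values after they were seen, and genes just outside them were not counted.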
